A study of Mus musculus with 4 samples.

Results

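The genes described here encode 10 proteins specific to the U11/U12 minor spliceosome, chosen by symbol: Rnpc3, Snrnp25, Snrnp35, Snrnp48, Zmat5, Pdcd7, Zcrb1, Zrsr1, Zrsr2 and Scnm1. Each had 1 row in a count table of 55401 mouse genes, and all 10 were among the 17344 genes that passed the filter on low counts, with levels above the filter's bound in all 4 libraries. The cells were 129/Ola mouse embryonic stem cells grown with serum and leukemia inhibitory factor, and their SNRNP70 (U1-70K, a core component of U1 snRNP) carried an auxin-inducible degron. RNA made while the cells held 4-thiouridine (4sU) was captured and sequenced from cells kept with the auxin IAA for 5 h (2 libraries, genotype labelled as SNRNP70 degradation) and from the same degron line without it (0 h, 2 libraries, genotype labelled wild type). The series set out to compare SNRNP70 with the zinc finger protein ZFP207 in U1 snRNP function, and the SNRNP70 arm is used here. Whether the degron line was a single clone, how long the cells were labelled, and whether RNA was spiked in are not given in the sources used here.

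The minor spliceosome removes a rare class of introns, the U12-type introns. Their 5′ splice site is recognised by U11 snRNA and their branch point by U12 snRNA, which work as a preformed U11/U12 di-snRNP in place of U1 and U2. U4atac and U6atac replace U4 and U6 later on, while U5, the Sm core and the SF3b complex are shared with the major spliceosome. Several minor spliceosome proteins have a counterpart in the major one: Snrnp35 resembles U1-70K, the protein degraded here, Rnpc3 holds RNA-binding domains like those of Snrpa, the zinc fingers of Snrnp48 and Zmat5 recall that of Snrpc, and Zrsr2 is related to the small subunit of U2AF. U12-type introns often splice slowly, and loss of minor spliceosome components is known to disturb genes of the cell cycle and of development. The count table gives 1 value per gene and does not measure the splicing of any intron.

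Sequences just before the transcript start are shown for 4 members. Zrsr1 and Zrsr2 are paralogues that differed in labelled RNA, and Pdcd7 and Zcrb1 share a motif and differed in direction. Each run is the 100 bases before the start in RefSeq's promoter table for GRCm38.p6, on the strand of the gene. For Zcrb1 that table's start lies 7 bases inside the gene's RefSeq span given below. The Zrsr1 window lies wholly inside the span of Commd1, and those of Zcrb1 and Zrsr2 partly inside the spans of Pphln1 and Gm38561. The CCGGAA match of Zcrb1 lies within the span of Pphln1. Capitals mark a match, on either strand, to CCGGAA (the core bound by ETS factors) or GGGCGG (a GC box).
Zrsr1 (chr11:22971905-22972004, plus strand): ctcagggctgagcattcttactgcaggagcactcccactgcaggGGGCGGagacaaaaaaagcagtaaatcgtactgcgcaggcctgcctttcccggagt
Zrsr2 (chrX:163958667-163958766, minus strand): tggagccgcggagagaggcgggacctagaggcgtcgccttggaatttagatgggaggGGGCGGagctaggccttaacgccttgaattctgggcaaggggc
Pdcd7 (chr9:65345968-65346067, plus strand): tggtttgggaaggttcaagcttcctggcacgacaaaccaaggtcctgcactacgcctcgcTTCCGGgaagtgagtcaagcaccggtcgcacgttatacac
Zcrb1 (chr15:93398335-93398434, minus strand): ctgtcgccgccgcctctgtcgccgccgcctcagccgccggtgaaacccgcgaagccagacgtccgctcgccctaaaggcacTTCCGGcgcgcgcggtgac

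The promoter table held 9 of the 10 members, all but Scnm1. CCGGAA was found in 2 of the 9 windows, against 7.23% of all 32851 windows of the same length. It began 40 bases before the start of Pdcd7 and 19 bases before that of Zcrb1. GGGCGG was found in 4 of the 9, those of Zrsr1, Zrsr2, Snrnp48 and Snrnp25, against 24.7% of all windows. The motif CCAAT (an NF-Y box, both strands) was found in 1 of the 9, that of Snrnp25, against 18.9%, and TATAAA (the core element bound by TBP, both strands) in 0 of the 9, against 5.56%. No 2 matches overlapped in the members' windows. A match describes the letters and does not show that a factor binds there.

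After 5 h of auxin the minor spliceosome genes moved in both directions relative to the other genes of the library. Snrnp35, Rnpc3, Zrsr1, Snrnp48 and Pdcd7 rose by 0.50 to 1.16 on the log2 scale, and Zcrb1 fell to 0.524 of its 0 h level, with scaling by trimmed mean of M values (TMM). Snrnp25, Zrsr2, Scnm1 and Zmat5 did not pass. By edgeR (quasi-likelihood, Benjamini-Hochberg over all 17344 genes, adjusted p under 0.05), 5 of 10 rose and 1 of 10 fell. Of all tested genes 43.2% passed in either direction, 22% as higher and 21.2% as lower. The members' median log2 fold change was 0.42, and that of all tested genes was -0.02. The direction depended on the scaling: with library totals 3 rose (Rnpc3, Snrnp48 and Zrsr1) and 3 fell (Zcrb1, Zmat5 and Scnm1), and with scaling to the mitochondrially encoded genes 0 rose and 4 fell (Zcrb1, Zmat5, Scnm1 and Zrsr2). Of all tested genes 13.2% rose and 30.3% fell with library totals, and 2.28% rose and 51.2% fell with mitochondrial scaling. These scalings moved the median of all genes to -0.28 and -0.86. Changes below are relative to the median gene under TMM unless another scaling is named.

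Library totals were 15645894 and 10349277 counts at 5 h (replicates 1 and 2, the order kept throughout) and 17752887 and 7174772 counts at 0 h. CPM below are TMM-scaled counts set to a common library size. On log2(CPM + 1) across genes, Pearson's r was 0.984 for the pair of 5 h replicates, 0.986 for the pair of 0 h replicates and 0.939 to 0.949 across times. The mitochondrially encoded share was 6.03% and 7.17% at 5 h, against 4.41% and 4.34% at 0 h. The 8 embryonic stem cell markers examined were all tested, and their summed level was 3304 and 3315 CPM at 5 h and 3069 and 2939 CPM at 0 h. Of them 3 rose (Sox2, Klf4 and Pou5f1) and 2 fell (Tdgf1 and Nanog). Summed levels were low for 5 fibroblast feeder markers (13.5 and 12.5 CPM at 5 h, 10.1 and 9.16 CPM at 0 h, with Postn at 0 in every library), for 3 primitive endoderm markers (6.21 and 3.57 CPM at 5 h, 3.91 and 0.891 CPM at 0 h) and for 4 markers of other germ layers (14.1 and 17.5 CPM at 5 h, 10.3 and 8.02 CPM at 0 h, with Cdx2 at 0 in every library). Only 2 of the 5, 2 of the 3 and 2 of the 4 genes in these lists passed the filter and were tested, and of those Sox1 rose. The part of these 12 marker genes in the results was not tested. The replicates are described as independent, without mention of separate cultures, so the p-values measure the spread between these libraries, which may be technical. In bulk samples, fewer cells with an RNA and less RNA per cell cannot be told apart.

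**Figure D1:**
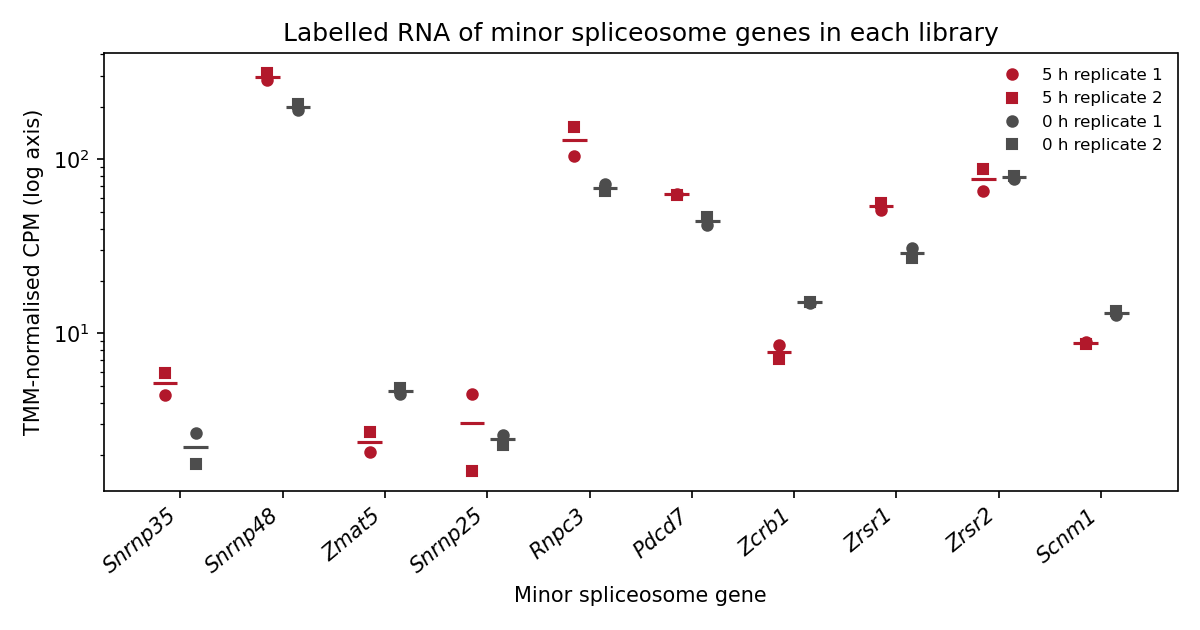
TMM-normalised CPM (log axis) of the 10 minor spliceosome genes, in the order in which they are described; red marks are the 5 h libraries and grey marks the 0 h libraries, circles replicate 1, squares replicate 2, and bars group means (n = 2). The groups did not overlap for 8 genes, 5 of them higher at 5 h, against 73.5% of all tested genes. They overlapped for Zrsr2 and Snrnp25. Under mitochondrial scaling no gene was called higher, against 2.28% of all tested genes.

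Among proteins at the 5′ splice site, Snrnp35, the U11 counterpart of U1-70K, had 4.42 and 5.94 CPM at 5 h and 2.68 and 1.78 CPM at 0 h. Both 5 h libraries were above both 0 h libraries. The gene spans chr5:124483081-124493586 (RefSeq span on GRCm38, the assembly of mm10, plus strand). It rose by 1.16 ± 0.40 on the log2 scale (SE, here and below), or 2.24-fold, with adjusted p = 0.0388 by edgeR and a 95% interval of 0.27 to 2.06. This value rests on few counts, 64 and 55 at 5 h and 52 and 14 at 0 h. The call was lost without 0 h replicate 2 (adjusted p = 0.177) and without 5 h replicate 2 (adjusted p = 0.152), and also with DESeq2 (adjusted p = 0.115), the replicate number as a block (0.0652), library totals (0.0978) and mitochondrial scaling (0.569), in a range from 0.0219 to 0.569 over 12 alternatives. Its RefSeq span overlaps Rilpl1 on the other strand by 507 bases. It also overlaps the RefSeq gene Gm52789 by 4014 bases, for which no row was found under that symbol. Rilpl1, which was not called, had 15.6 and 16.4 CPM at 5 h and 18.3 and 16.2 CPM at 0 h.

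Snrnp48, whose product contacts the U12-type 5′ splice site, had the most counts of the 10 members, with 284 and 313 CPM at 5 h and 192 and 208 CPM at 0 h. The groups did not overlap. Its mean was 298 ± 20.8 CPM at 5 h and 200 ± 11.2 CPM at 0 h (SD, n = 2 each). It rose by 0.58 ± 0.10 on the log2 scale, or 1.49-fold (edgeR, Benjamini-Hochberg adjusted p = 0.000743), and was at -0.27 with mitochondrial scaling, where it did not pass. The gene lies on chromosome 13 from 38204914 to 38227663. The mRNAs of Snrnp48 and Rnpc3 are known to hold a conserved element bound by U11 snRNP, through which the minor spliceosome lowers its own components. Isoforms with and without the regulated exon were not separated in these counts.

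Zmat5, a small zinc finger protein of the di-snRNP, had 2.07 and 2.70 CPM at 5 h and 4.48 and 4.84 CPM at 0 h. Both 5 h libraries were below both 0 h libraries. The log2 fold change was -0.97 ± 0.39 and missed the threshold (edgeR, adjusted p = 0.0704, 95% interval -1.84 to -0.10). It passed, as lower, with library totals (adjusted p = 0.0262), mitochondrial scaling (0.00254), limma-voom (0.0497) and counts divided by 4 (0.0420), and over the 11 alternatives that tested it the adjusted p ran from 0.00254 to 0.228. Zmat5 overlaps Cabp7 on the other strand by 778 bases, and Cabp7 had 4.01 and 2.49 CPM at 5 h and 6.54 and 5.60 CPM at 0 h. The log2 fold change of Cabp7, -0.89 ± 0.36, also missed the threshold (edgeR, adjusted p = 0.0699). Whether counting used strand is not stated, so reads of the 2 genes from the overlap cannot be told apart. Uqcr10, a subunit of respiratory complex III that lies 311 bases away on the other strand, rose by 0.82 ± 0.19 on the log2 scale (edgeR, adjusted p = 0.00509) and was at -0.02 with mitochondrial scaling.

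Snrnp25, a ubiquitin-like protein of U11, had 4.49 and 1.62 CPM at 5 h and 2.62 and 2.29 CPM at 0 h. The 5 h libraries lay on either side of the 0 h libraries. They differed from each other more than from either 0 h library, with 65 and 15 counts at 5 h and 51 and 18 at 0 h. Its log2 fold change was 0.33 ± 0.52 (edgeR, adjusted p = 0.641, 95% interval -0.82 to 1.49). It was -0.60 without 5 h replicate 1 and 0.87 without 5 h replicate 2, so 1 library set its sign. Its neighbours are Il9r, 131 bases away and too low to be tested, and Rhbdf1, 588 bases away and not called (19.1 and 21.3 CPM at 5 h, 16.1 and 13.4 CPM at 0 h).

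Among proteins that join U11 to U12, Rnpc3, which binds U12 snRNA, had 105 and 154 CPM at 5 h and 71.6 and 65.9 CPM at 0 h. The groups did not overlap, and the 5 h libraries spread widely (129 ± 35.0 CPM at 5 h, 68.8 ± 4.05 CPM at 0 h; SD, n = 2 each). Rnpc3 spans 113605067 to 113630149 on chromosome 3 and rose by 0.90 ± 0.16 on the log2 scale, or 1.87-fold (edgeR, adjusted p = 0.00138). The value was 0.62 without 5 h replicate 2, 1.16 without 5 h replicate 1 and 0.03 with mitochondrial scaling, where it did not pass. In people, mutations of RNPC3 are known to cause growth hormone deficiency.

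Pdcd7, which meets Rnpc3 in the di-snRNP and bridges it to U11, had 62.8 and 62.7 CPM at 5 h and 42.1 and 46.7 CPM at 0 h. Both 5 h libraries were higher. It rose by 0.50 ± 0.12 on the log2 scale (edgeR, adjusted p = 0.00759). Pdcd7 missed the threshold without 0 h replicate 1 (adjusted p = 0.0893), with library totals (0.157), and with mitochondrial scaling, which put its log2 fold change at -0.34. Over 12 alternatives the adjusted p ran from 0.00213 to 0.170. No other gene of the RefSeq table lies within 1 kb of Pdcd7, Rnpc3 or Snrnp48.

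Zcrb1, a zinc knuckle protein with an RNA recognition motif, had 8.56 and 7.13 CPM at 5 h and 15.0 and 15.1 CPM at 0 h. Both 5 h libraries were lower. It fell by 0.93 on the log2 scale (SE 0.23), and the 0 h level was 1.91 times the 5 h level (edgeR, adjusted p = 0.00737). Zcrb1 passed as lower in all 12 alternatives, with adjusted p from 0.000208 to 0.0340, and was at -1.20 with library totals and -1.77 with mitochondrial scaling. It lies on chromosome 15 from 93386106 to 93398341 and its span lies 3 bases from that of Pphln1, which runs the other way. Pphln1, a component of a silencing complex, had 36.4 and 44.9 CPM at 5 h and 32.9 and 37.9 CPM at 0 h, and its log2 fold change of 0.20 ± 0.15 did not pass (edgeR, adjusted p = 0.329).

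At the 3′ splice site, Zrsr1 and its X-linked paralogue Zrsr2 differed. Zrsr2 recognises the 3′ splice site of U12-type introns, and its human gene is mutated in myelodysplastic syndromes. Zrsr1 is a mouse retrogene copy, known to be expressed from the paternal allele and to lie within Commd1. Zrsr1 had 51.0 and 56.2 CPM at 5 h and 30.8 and 27.0 CPM at 0 h, with no overlap. It rose by 0.88 ± 0.14 on the log2 scale, or 1.84-fold (edgeR, adjusted p = 0.000593), and was at 0.04 with mitochondrial scaling, where it did not pass. Zrsr2 had 66.0 and 87.8 CPM at 5 h and 77.1 and 80.3 CPM at 0 h. The 2 libraries of 5 h lay on either side of those of 0 h, and the log2 fold change was -0.04 ± 0.14 (edgeR, adjusted p = 0.853, 95% interval -0.35 to 0.27). It was 0.16 without 5 h replicate 1 and -0.23 without 5 h replicate 2.

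The count of Zrsr1 over that of Zrsr2 within a library does not depend on scaling. On the log2 scale it was -0.37 and -0.64 at 5 h and -1.32 and -1.57 at 0 h, so the ratio was higher in both 5 h libraries, by 0.94 on average. This pair was chosen after its values were seen. Reads that fit both paralogues could have been split between them, and the share of such reads was not measured. Zrsr1 lies on chromosome 11 from 22972005 to 22976496, wholly inside Commd1 and on its other strand. Commd1, a copper and endosome regulator, had 23.0 and 28.6 CPM at 5 h and 10.4 and 8.27 CPM at 0 h and rose by 1.44 ± 0.21 on the log2 scale (edgeR, adjusted p = 0.000394), a value that was 0.59 and did not pass with mitochondrial scaling. The labels and notes do not state whether counting used strand, so reads of Zrsr1 and of the intron around it cannot be told apart. The same holds where Snrnp35 and Zrsr2 overlap a gene on the other strand. Zrsr2 overlaps Ap1s2 on the other strand by 1073 bases, and Ap1s2 had 10.2 and 13.3 CPM at 5 h and 12.97 and 11.5 CPM at 0 h. The RefSeq gene Gm38561 lies 74 bases away, and no row was found under that symbol.

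Scnm1, a zinc finger protein of the activated minor spliceosome, first known as a modifier of sodium channel splicing in mice, had 8.91 and 8.65 CPM at 5 h and 12.8 and 13.5 CPM at 0 h. Both 5 h libraries were lower, and the log2 fold change of -0.58 ± 0.23 missed the threshold (edgeR, adjusted p = 0.0613, 95% interval -1.07 to -0.08). It passed as lower with library totals (adjusted p = 0.0126), mitochondrial scaling (0.000897), the stricter count filter (0.0378) and counts divided by 4 (0.0417), in a range from 0.000897 to 0.225 over 12 alternatives. One neighbour is Lysmd1, 37 bases away and not called (9.74 and 7.57 CPM at 5 h, 7.26 and 10.4 CPM at 0 h). The other is Tmod4, which was too low to be tested (0 and 0 counts at 5 h, 1 and 0 at 0 h).

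**Figure D2:**
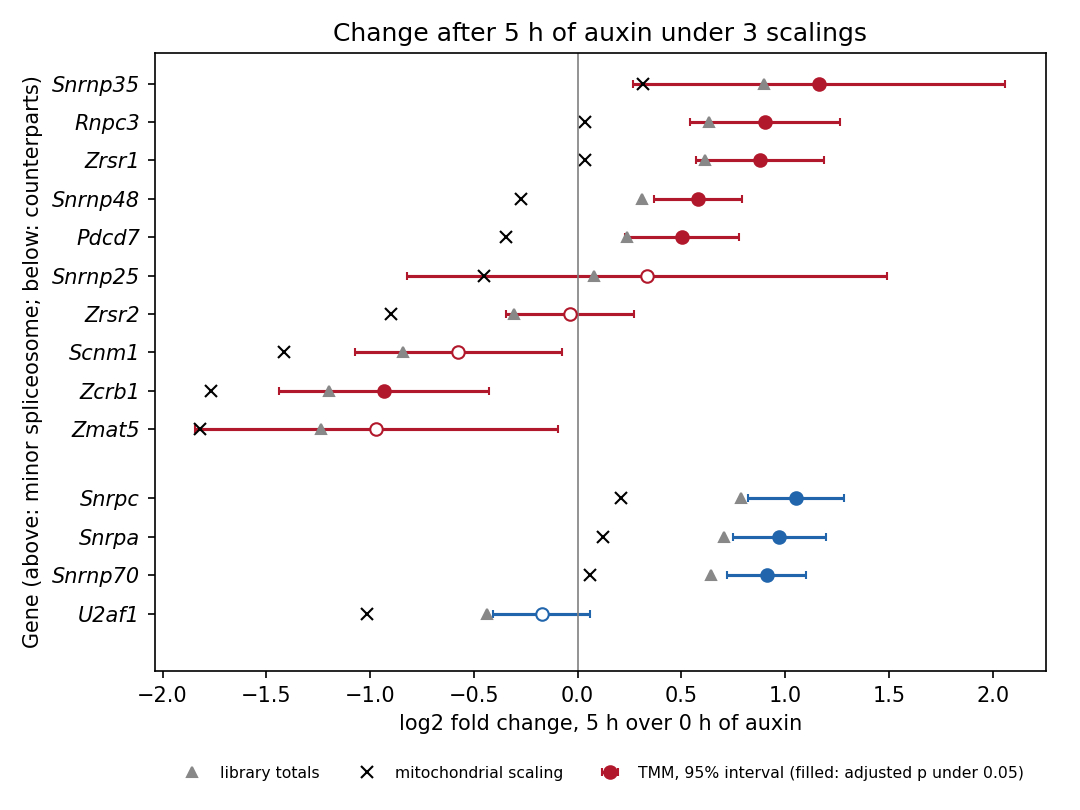
Log2 fold change of 5 h over 0 h for the 10 minor spliceosome genes (upper block, red) and 4 major spliceosome counterparts (lower block, blue). Circles are TMM values with 95% intervals, filled where the edgeR adjusted p was under 0.05; triangles are values scaled to library totals and crosses values scaled to mitochondrially encoded genes. From TMM to mitochondrial scaling Snrnp48, Pdcd7 and Snrnp25 cross 0, while Zcrb1, Zmat5, Scnm1 and Zrsr2 stay below it.

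Groups did not overlap for 8 of the 10 members, against 73.5% of all tested genes. The composition of the labelled minor spliceosome RNA was also read without any scaling, as each gene's share of the counts summed over the 10 members. Shares follow gene length and do not order levels between genes. Zcrb1 had 1.44% and 1.02% of these counts at 5 h and 3.33% and 3.26% at 0 h. Zmat5 had 0.347% and 0.386% at 5 h and 0.993% and 1.04% at 0 h. Scnm1 had 1.49% and 1.24% at 5 h and 2.83% and 2.90% at 0 h, and Zrsr2 11.1% and 12.5% at 5 h and 17.1% and 17.3% at 0 h. The shares of these 4 genes were lower in both 5 h libraries than in both 0 h libraries. Rnpc3 took 17.5% and 22.0% at 5 h and 15.9% and 14.2% at 0 h, and Zrsr1 took 8.55% and 8.03% at 5 h and 6.83% and 5.80% at 0 h. Snrnp35 took 0.741% and 0.849% at 5 h and 0.593% and 0.383% at 0 h. The shares of these 3 genes were higher in both 5 h libraries. Pdcd7, with 10.5% and 8.96% at 5 h and 9.33% and 10.04% at 0 h, overlapped, as did Snrnp25. Snrnp48 took 47.6% and 44.73% at 5 h and 42.5% and 44.65% at 0 h, so its groups nearly met. A share falls when another gene's rises, so these values are not independent of each other.

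The counterparts in the major spliceosome gave a further comparison. Snrnp70, which encodes the degraded protein, rose to 463 ± 17.3 CPM at 5 h, against 246 ± 4.46 CPM at 0 h (SD, n = 2 each). The degron acts on the protein, so its RNA does not check the labels. Snrpc (the C protein of U1 snRNP) rose by 1.05 ± 0.10 and Snrpa (the A protein) by 0.97 ± 0.10 on the log2 scale (edgeR, adjusted p = 4.78e-05 and 5.70e-05), and both values, 0.21 and 0.12, did not pass with mitochondrial scaling. U2af1, the small subunit of U2AF, had 112 and 107 CPM at 5 h and 116 and 132 CPM at 0 h, a log2 fold change of -0.17 ± 0.11 that did not pass (edgeR, adjusted p = 0.217). Among these 4 genes 3 rose and 0 fell with TMM, and 0 rose and 1 (U2af1) fell with mitochondrial scaling. Of all tested genes 22% rose and 21.2% fell with TMM, and 2.28% rose and 51.2% fell with mitochondrial scaling.

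Ratios of a minor spliceosome gene to its counterpart were taken within each library and need no scaling. Zmat5 over Snrpc was -5.87 and -5.41 at 5 h and -3.68 and -3.57 at 0 h on the log2 scale, lower in both 5 h libraries (a mean difference of -2.01). Snrnp48 over Snrpc was 1.21 and 1.415 at 5 h and 1.73 and 1.83 at 0 h, also lower in both (-0.47). Zrsr1 over U2af1 was -1.14 and -0.93 at 5 h and -1.91 and -2.29 at 0 h, higher in both (1.07). The remaining pairs overlapped. Snrnp35 over Snrnp70 was -6.66 and -6.31 at 5 h and -6.53 and -7.04 at 0 h. Rnpc3 over Snrpa was -0.54 and -0.07 at 5 h and -0.20 and -0.23 at 0 h, and Zrsr2 over U2af1 was -0.77 and -0.29 at 5 h and -0.59 and -0.72 at 0 h. With 2 libraries a group, these ratios are given without a test. The ratio of Zmat5 rests on few counts of that gene, 30 and 25 at 5 h and 87 and 38 at 0 h. A ratio also moves with the counterpart: Snrpc rose by 1.05 with TMM, where Zmat5 was not called.

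**Figure D3:**
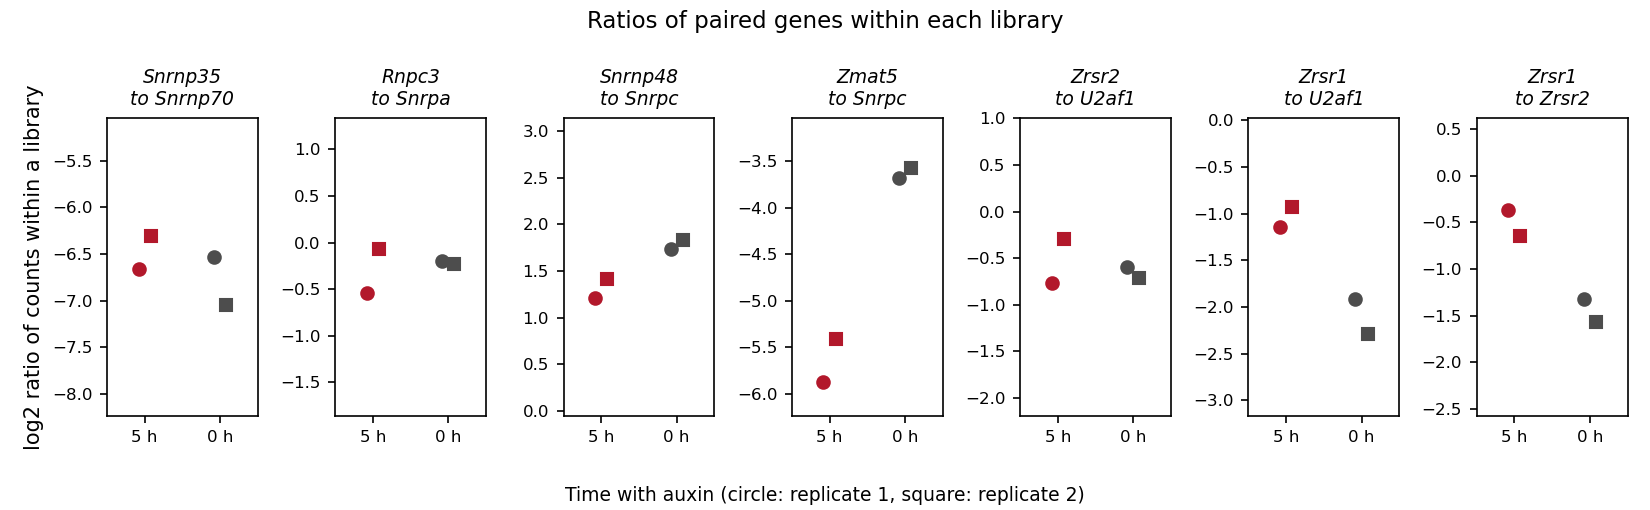
Log2 ratio of the counts of a minor spliceosome gene to a partner gene within each library, 5 h (red) left of 0 h (grey), circles replicate 1 and squares replicate 2; every panel spans the same range of 3.2 log2 units. Zmat5 to Snrpc differs by -2.01 and Zrsr1 to Zrsr2 by 0.94 between the group means. The groups overlap for Snrnp35 to Snrnp70, Rnpc3 to Snrpa and Zrsr2 to U2af1. Zmat5 had only 30 and 25 counts at 5 h.

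Genes of proteins that assist the minor spliceosome also differed in direction. Of 7 such genes, all tested, 2 rose and 3 fell with TMM, 0 rose and 3 fell with library totals, and 0 rose and 5 fell with mitochondrial scaling (median log2 fold change 0.05 with TMM). The TMM fit called 22% of all tested genes higher and 21.2% lower. Scaled to library totals, the calls were 13.2% higher against 30.3% lower. The mitochondrial scale left 2.28% of all tested genes higher and put 51.2% lower. Txnl4b, a thioredoxin-like protein of the minor tri-snRNP, had 2.55 and 2.59 CPM at 5 h and 9.57 and 7.25 CPM at 0 h. The groups were far apart, and it fell by 1.72 on the log2 scale (edgeR, adjusted p = 0.00179), the lowest value of all genes in the figure of related lists. Ppil2, a cyclophilin of the activated complex, fell by 0.73 (adjusted p = 0.000808), and Rbm41, which binds U12 and U6atac snRNA, fell by 0.50 (edgeR, adjusted p = 0.0237). Txnl4b and Ppil2 passed as lower in all 12 alternatives. Rbm41 lost its call without 5 h replicate 1 (adjusted p = 0.112), 0 h replicate 1 (0.0517) or 0 h replicate 2 (0.126), and with DESeq2 (0.0629).

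The partners Rbm48 and Armc7, which bind each other, rose by 0.60 ± 0.14 and 0.87 ± 0.22 on the log2 scale with TMM (edgeR, adjusted p = 0.00652 and 0.00884), and were at -0.26 and 0.04 with mitochondrial scaling. With library totals both calls were lost (adjusted p = 0.0830 for Rbm48 and 0.0548 for Armc7). Without 0 h replicate 2 that of Armc7 was lost, at a log2 fold change of 0.72. Fewer genes of the list rose there, as over all tested genes. Ccdc84, the gene of CENATAC, which acts on a subset of U12-type introns, had 25.3 and 26.9 CPM at 5 h and 26.7 and 23.5 CPM at 0 h, and Cript had 20.4 and 25.4 CPM at 5 h and 20.4 and 18.1 CPM at 0 h, and neither passed (edgeR, adjusted p = 0.837 and 0.331). Of 4 minor snRNA genes looked for, Rnu11 and Rnu12 had rows. Rnu11 had 6.49 and 6.05 CPM at 5 h and 4.37 and 4.07 CPM at 0 h, and Rnu12 had 1.80 and 1.95 CPM at 5 h and 0.772 and 1.53 CPM at 0 h. Neither was called by edgeR (adjusted p = 0.170 and 0.403; 0 of the 2 at an unadjusted p under 0.05), and none of the 12 alternatives called Rnu11 or Rnu12, of which 10 tested Rnu12. These counts do not measure the snRNPs.

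Genes of the proteins that the minor spliceosome shares with the major one were mostly higher in labelled RNA with TMM. Across all tested genes, higher calls made up 22% in that fit, 13.2% by library totals and 2.28% by the mitochondrial scale. Lower calls made up 21.2%, 30.3% and 51.2% in the same order. Of 25 genes of SF3b, the U5 snRNP, the tri-snRNP and the Sm core, 15 rose and 5 fell (median 0.46), 9 rose and 6 fell with library totals, and 1 rose and 12 fell with mitochondrial scaling. Snrpe and Snrpd2, of the Sm ring, rose by 1.37 ± 0.11 and 1.24 ± 0.15 on the log2 scale, and Sf3b3 rose by 0.66 ± 0.08 (edgeR, adjusted p = 2.12e-05, 0.000147 and 0.000150), though Sf3b3 was at -0.18 with mitochondrial scaling and only Snrpe of these 3 still passed there. Eftud2, the U5 GTPase, fell by 0.76 on the log2 scale, Prpf31 by 0.58 and Prpf6, a tri-snRNP bridge, by 0.50 (edgeR, adjusted p = 0.000208, 0.00333 and 0.00735). Without 0 h replicate 2 fewer genes of the list fell, as over all tested genes.

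Families known for U12-type introns were counted as possible clients. Which of these genes holds such an intron was not checked, because a genome was not used here. Of 20 genes (E2F factors and several kinases among them), 9 rose and 1 fell with TMM, against 6 and 4 with library totals and 0 and 10 with mitochondrial scaling, where 51.2% of all tested genes fell. By comparison, the TMM fit called 22% of all tested genes higher and 21.2% lower. The fit to library totals called 13.2% of them higher against 30.3% lower, and 2.28% were higher on the mitochondrial scale. The list's median log2 fold change was 0.23 with TMM. E2f6 and Araf rose by 1.12 ± 0.15 and 0.84 ± 0.11 on the log2 scale (edgeR, adjusted p = 0.000192 and 0.000173), and were at 0.29 and 0.0085 with mitochondrial scaling, where neither passed. E2f5 had 14.6 and 14.8 CPM at 5 h and 23.8 and 22.3 CPM at 0 h and fell by 0.65 (edgeR, adjusted p = 0.0127). Its call was lost without 0 h replicate 1, where its log2 fold change was -0.59 and fewer of all tested genes fell. The number of the list that fell also changed without 5 h replicate 1. Total labelled RNA of a gene does not show whether its U12-type intron was removed.

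**Figure D4:**
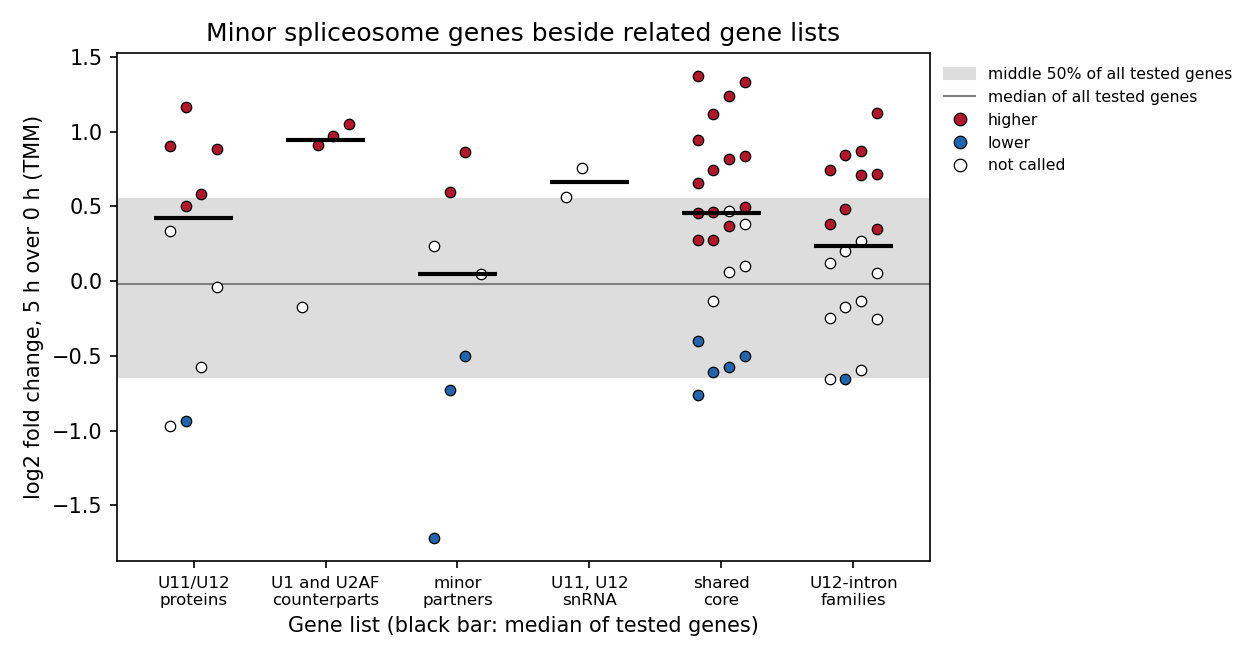
Log2 fold change of 5 h over 0 h (TMM) for the minor spliceosome genes and 5 related lists, 1 point per tested gene, coloured by the edgeR call, with the list median as a black bar and the middle 50% of all 17344 tested genes in grey. The minor spliceosome genes run from -0.97 to 1.16, and their partners from -1.72 to 0.87; with mitochondrial scaling 0 of the 10 were called higher and 4 lower, against 2.28% and 51.2% of all tested genes.

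Gene span was set beside the changes because short genes were higher than long ones over all genes. The 3 members under 5 kb were Snrnp25, Zrsr1 and Scnm1, of which 1 rose, in a class of 3017 tested genes where 32.1% rose, 4.71% fell and the median log2 fold change was 0.49. Scnm1, at 4.33 kb, was at -0.58 and below the middle 50% of that class, which ran from -0.13 to 0.99. Snrnp25 and Zrsr1 lay within it. The 3 members of 5 to 20 kb were Snrnp35 and Pdcd7, which rose, and Zcrb1, which fell. Their class of 4637 genes had a median of -0.01, and 24.8% rose and 20.2% fell. The middle 50% of this class ran from -0.61 to 0.52, with Zcrb1 below it, Snrnp35 above it and Pdcd7 within it. The 4 members of 20 to 50 kb were Rnpc3, Snrnp48, Zmat5 and Zrsr2. Rnpc3 and Snrnp48 rose, in a class of 3741 genes with a median of -0.21 where 18.8% rose and 31.6% fell. Both lay above the middle 50% of this class, which ran from -0.80 to 0.30. Zmat5 lay below it and Zrsr2 within it. The medians and shares of these classes are TMM values. No member was longer than 50 kb.

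Among other protein-coding genes with a mean of at least 5 CPM, those nearest to Snrnp35 across the 4 libraries, by Euclidean distance of centred log2(CPM + 1) values, were Prickle1, Rnf24 and Map7d2 (distances 0.0726, 0.0774 and 0.0811). Those nearest to Zcrb1 were Uso1, Abca1 and Rrm2b (distances 0.0410, 0.0467 and 0.0472), with log2 fold changes of -0.86, -0.83 and -0.96. With 4 libraries, likeness rests mostly on the difference between the times.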

How the data were processed

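The authors deposited whole-number estimated counts per gene for 4 libraries. The submitters' processing notes name mm10, StringTie 2.2.1, HISAT2 2.2.1 and DESeq2 1.42.0 without roles, and the annotation, filters and strand setting are not given in the sources used here. The deposited values were taken to be derived from coverage, because in all 4 libraries more genes held 3 or 4 than held 2, so counting error can exceed what the numbers imply. Rounding changed nothing, and every column was mapped to a sample by title. Genes were kept by filterByExpr (17344) and fitted in edgeR 4.0.16 (R 4.3.3) with TMM, robust quasi-likelihood fits and a two-sided test, 5 h minus 0 h, adjusted by Benjamini-Hochberg, threshold 0.05. The SE is the log2 fold change over the root of F. Alternatives used DESeq2 1.42.0, limma 3.58.1 (voom), 2 other scalings, filters, counts divided by 4, a replicate block and each library left out. The members and lists were chosen with earlier results of these data known. Named genes were all members, counterparts, overlapping genes or those within 1 kb, all genes of lists of up to 8 (marker lists aside), and of longer lists the 3 with the lowest adjusted p and up to 3 called against the majority; 1 of those 3 in a longer list is not reported here. RefSeq symbols and spans (GRCm38.p6) matched 86.7% of tested genes. Levels were not ordered between members, because exon and coding lengths were not used here.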

Additional observations from a re-analysis of the deposited data

How the results depend on the processing

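For the members, the counts that rose and fell were 3 and 3 with library totals and 0 and 4 with mitochondrial scaling. The number that fell was also 2 with the stricter filter, 2 with limma-voom and 3 with counts divided by 4. The stricter filter and the division each left out 1 member. In these 3 fits, in the same order, 3707 of 12332, 3957 of 17344 and 3996 of 13242 tested genes fell. Over all genes, 2297 (13.2%) rose and 5257 (30.3%) fell with library totals, and 396 (2.28%) rose and 8872 (51.2%) fell with mitochondrial scaling. In the TMM fit 3814 (22%) rose and 3677 (21.2%) fell. Among the counterparts 1 fell with library totals, and 0 rose and 1 fell with mitochondrial scaling. Among the partners 0 rose with library totals, 0 rose and 5 fell with mitochondrial scaling, and the number that rose changed when 1 library was left out. Of the shared core 9 rose with library totals, 1 rose and 12 fell with mitochondrial scaling, and the number that fell changed with 1 library left out. Of the U12-intron families 4 fell with library totals, 0 rose and 10 fell with mitochondrial scaling, and the number that fell changed with 1 library left out. Leaving out 1 library also changed the numbers of all tested genes that rose and fell.

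Signs turned with mitochondrial scaling for Snrnp25 (-0.45), Snrnp48 (-0.27), Pdcd7 (-0.34), Rbm48 (-0.26), Ccdc84 (-0.80), Cript (-0.61), Rnu11 (-0.27), Rnu12 (-0.091), Sf3b3 (-0.18), Rhbdf1 (-0.40), Uqcr10 (-0.018), Pphln1 (-0.66) and Lysmd1 (-0.83). Library totals turned Ccdc84 (-0.22), Cript (-0.031), Pphln1 (-0.069) and Lysmd1 (-0.26). Lysmd1, near 0 in the TMM fit, also turned with DESeq2 (-0.0050), with the stricter filter (-0.043) and without 0 h replicate 1 (-0.25) or 5 h replicate 1 (-0.20), and was 0.26 without 0 h replicate 2. Without 5 h replicate 1, Snrnp25 (-0.60), Zrsr2 (0.16) and Ap1s2 (0.12) turned, and without 5 h replicate 2 Snrnp25 was at 0.87 and Zrsr2 at -0.23. Ap1s2 (0.038) turned without 0 h replicate 1, and Ccdc84 (-0.035) without 0 h replicate 2. The other scalings shift nearly all genes one way by construction, and for the rest the cause was not tested.

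With the replicate number as a block, 3837 genes rose and 3545 fell, and 4 members rose and 1 fell, Snrnp35 being lost. Same-numbered libraries deviated together only weakly (r = 0.0739 across genes), and 2 pairs do not show that the numbers pair the samples. Members with few counts (Snrnp25, Snrnp35 and Zmat5, 14 to 87 counts a library) are the least precise. Where 1 library was left out, the lone library of its time was assumed to vary like the others. Ratios within libraries kept their direction with a pseudocount of 5 in place of 0.5.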
